A study of Mus musculus with 6 samples.

Results

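The 10 genes described here encode 9 cathepsins, the proteases of the lysosome and endosome, and cystatin M, an inhibitor of some of them. They were taken by name (*Ctsb*, *Ctsc*, *Ctsd*, *Ctse*, *Ctsh*, *Ctsk*, *Ctsl*, *Ctss*, *Ctsz* and *Cst6*) from the 19938 genes of a microarray table, each through its brightest probe set naming 1 gene, and all 10 were found, each with 1 such probe set. They were picked with their difference between mutant and control arrays known, so that difference is given for them as a description and not as a test. Signals are log2 values, and a difference of 1 is a doubling.

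The arrays measured RNA of esophageal epithelium from 6 mice aged 3 months on a mixed genetic background. All 6 carried *Klf4*, a transcription factor gene of differentiating epithelia, with both copies flanked by loxP sites (Klf4loxp/loxp). The 3 mutants also carried the transgene ED-L2-Cre, driven by a viral promoter active in squamous epithelium, and the 3 controls were littermates without Cre. In both genotypes replicate 1 was a male and replicates 2 and 3 were females, and each array held the RNA of 1 animal. The signal of *Klf4* itself was no lower in the labelled mutants (0.37 ± 0.13, SE; limma adjusted p = 0.314), and whether its probes lie in the removed part is not given in the sources used here, so every direction rests on the labels. All 12 markers of squamous epithelium, among them *Krt4*, *Krt13* and *Trp63*, lay above a dim limit of 4.35, the 40th percentile of mean signal over all probe sets. None of them passed the test between genotypes, where the smallest p belonged to the adhesion gene *Epcam* (0.63 ± 0.11, adjusted p = 0.0547) and the E-cadherin gene *Cdh1* (0.21 ± 0.09, adjusted p = 0.378). Their median difference was -0.008, and it turned to 0.011 with quantile normalization and 0.014 when the arrays were centred on their medians.

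Cathepsins are made as inactive proenzymes, sorted to acidic compartments and activated there by removal of a propeptide. Those of the papain family (B, C, H, K, L, S and Z, 7 of the genes here) cut with an active-site cysteine, and cathepsins D and E use aspartates. In squamous epithelium they take part in the breakdown of organelles and in the maturation of enzymes that crosslink the cornified envelope. Cystatin M, encoded by *Cst6*, blocks cathepsin L and the asparaginyl protease legumain, and mice without it have a disturbed, scaling epidermis.

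RefSeq promoter windows of assembly GRCm38.p6, which run from 250 bases before to 50 after a gene's start, were held for 6 of the 10 genes: *Ctsc*, *Ctsd*, *Ctsk*, *Ctsl*, *Ctss* and *Ctsz*. Those of the gene with the largest difference (*Ctsc*), of the gene lower by most (*Ctsk*) and of a gene with CACGTG matches (*Ctsd*) are shown, 5′ to 3′ on the gene's strand. Capitals mark CACCC, the core of a box bound by Krüppel-like factors, searched on both strands (also as GGGTG), and CACGTG, the palindromic E-box core bound by the lysosomal regulator TFEB. The 2 motifs share no overlapping match here. The windows are chr7:88277835-88278134 (plus strand) for *Ctsc*, chr7:142387778-142388077 (minus strand) for *Ctsd* and chr3:95498960-95499259 (plus strand) for *Ctsk*.
Ctsc: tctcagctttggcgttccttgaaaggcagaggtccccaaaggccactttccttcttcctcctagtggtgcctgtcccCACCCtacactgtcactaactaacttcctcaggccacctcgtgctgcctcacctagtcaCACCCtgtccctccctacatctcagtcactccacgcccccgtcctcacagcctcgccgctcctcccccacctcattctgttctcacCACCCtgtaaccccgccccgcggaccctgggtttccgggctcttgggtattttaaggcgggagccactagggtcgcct
Ctsd: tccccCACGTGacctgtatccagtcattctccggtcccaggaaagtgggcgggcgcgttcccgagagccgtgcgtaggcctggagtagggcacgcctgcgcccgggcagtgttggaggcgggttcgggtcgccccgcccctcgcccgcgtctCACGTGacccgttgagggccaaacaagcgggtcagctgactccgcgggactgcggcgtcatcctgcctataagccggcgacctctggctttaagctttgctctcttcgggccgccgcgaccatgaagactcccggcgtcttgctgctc
Ctsk: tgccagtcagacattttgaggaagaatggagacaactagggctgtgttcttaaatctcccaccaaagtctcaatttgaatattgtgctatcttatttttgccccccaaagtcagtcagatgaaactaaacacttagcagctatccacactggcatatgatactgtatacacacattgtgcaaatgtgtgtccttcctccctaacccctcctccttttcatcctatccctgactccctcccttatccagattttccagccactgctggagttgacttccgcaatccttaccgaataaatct
The *Ctsc* window held CACCC 3 times, with first bases 173, 114 and 28 bases before the start, and no CACGTG. The *Ctsd* window held CACGTG 2 times, 245 and 98 bases before the start, and no CACCC. The *Ctsk* and *Ctss* windows held neither motif, the *Ctsl* window held CACCC 2 times and CACGTG 1 time, and the *Ctsz* window held CACCC 1 time, as GGGTG. Of all 32851 promoter windows in the table, 57.5% held CACCC and 7.15% held CACGTG. These matches describe letters and show no binding.

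Mutant against control arrays, 7 of the 10 genes were higher and 3 lower, and 8 differed by less than 0.3 on the log2 scale. The median difference of the 10 genes was 0.04, beside 0.02 over all 19938 genes. In the fit over all genes (limma, Benjamini-Hochberg adjusted p under 0.05) 207 genes were called, or 1.04% of those tested (0.366% higher and 0.672% lower), and 1 of the 10, *Ctsc*, was among those higher. The control and mutant arrays did not overlap for 4 of the 10 genes (*Ctsc*, *Ctsd*, *Ctsk* and *Cst6*), as for 18.1% of all genes. Since the genes were chosen on this contrast, nothing is read from either count.

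**Figure D1:**
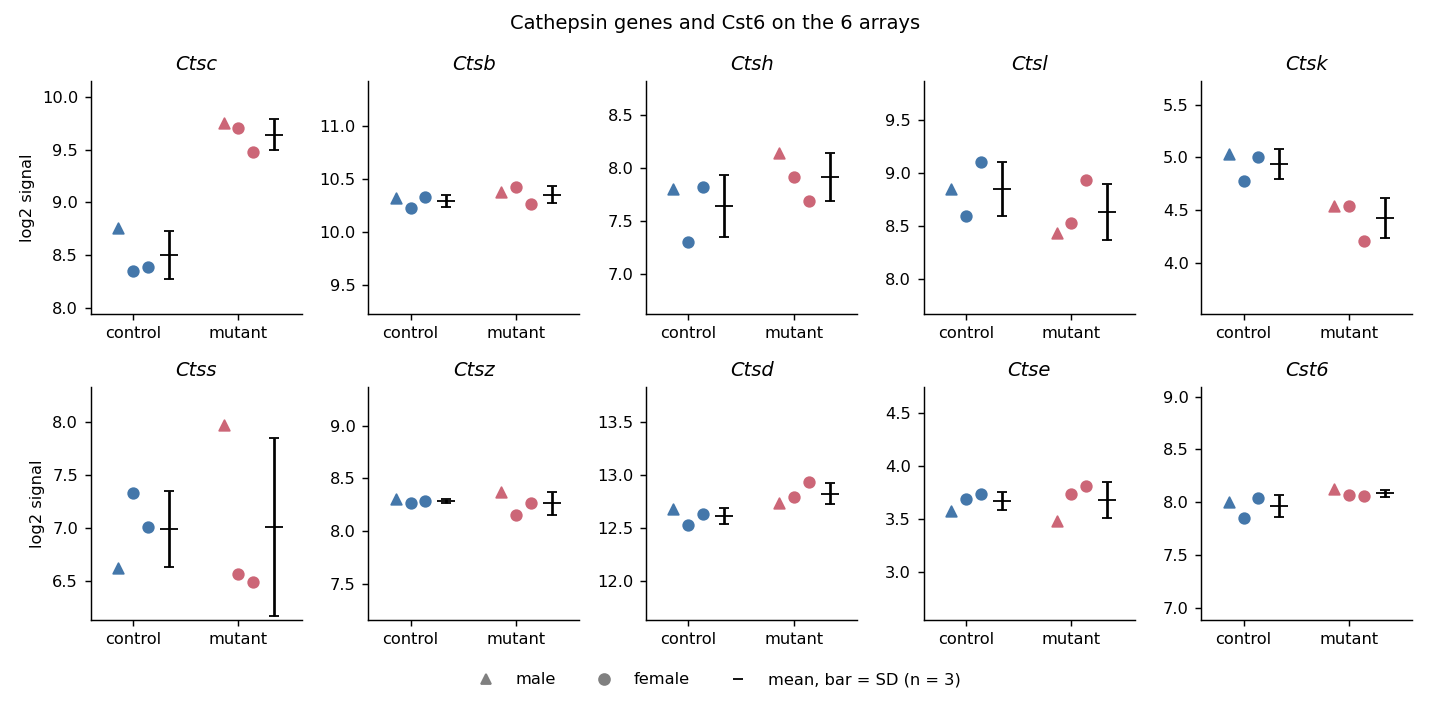
Log2 signal (vertical axis, each panel 2.2 log2 units tall) of the 9 cathepsin genes and *Cst6* on each control (blue) and mutant (red) array; triangles are males, circles females, and the black mark is the mean with its SD (n = 3). *Ctsc* stands apart between groups (8.50 against 9.64), *Ctsk* is lower on all mutant arrays, and *Ctss* is spread most, with the male mutant at 7.97.

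*Ctsc* encodes cathepsin C, also called dipeptidyl peptidase I, which removes pairs of residues from the amino end of proteins and so activates serine proteases of leukocyte granules. Its signal read 8.76, 8.35 and 8.39 on controls 1 to 3 and 9.75, 9.70 and 9.48 on mutants 1 to 3. Every mutant array lay above every control array, and the lowest mutant stood clear of the highest control. The means were 8.50 ± 0.23 and 9.64 ± 0.15 (SD, n = 3 each), a difference of 1.14 ± 0.14 (SE) or 2.20-fold. Of all genes, 0.978% differed by more in either direction. Without any 1 array the difference lay between 1.06 and 1.27, while *Ctsc* left the called genes without control 3, without mutant 1 and without mutant 2, so the count of called cathepsin genes was then 0.

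Among the other papain-family members with a broad role in the lysosome, *Ctsb* and *Ctsz* varied little. *Ctsb*, encoding cathepsin B, one of the main endopeptidases of lysosomes, read 10.32, 10.23 and 10.33 on controls and 10.37, 10.42 and 10.26 on mutants. The groups overlapped, and the difference was 0.06 ± 0.09 (SE). *Ctsz*, encoding the carboxypeptidase cathepsin Z, read 8.31, 8.26 and 8.29 on controls and 8.38, 8.15 and 8.26 on mutants, a difference of -0.02 ± 0.10. Its groups overlapped too, and its sign turned without mutant 2 (0.03). *Ctsh*, encoding cathepsin H, an aminopeptidase, read 7.80, 7.30 and 7.82 on controls and 8.14, 7.92 and 7.69 on mutants. Control 2 was the lowest array and mutant 1 the highest, and the difference of 0.28 ± 0.18 was close in size to the pooled SD within groups, 0.26.

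*Ctsl* encodes cathepsin L, the endopeptidase that cystatin M restrains, whose loss in mice affects hair follicles and epidermis. It read 8.85, 8.59 and 9.10 on controls and 8.44, 8.53 and 8.93 on mutants. The groups overlapped, with mutant 3 above controls 1 and 2, and the difference was -0.22 ± 0.18 (SE). Leaving out single arrays gave differences between -0.37 and -0.09.

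*Cst6* read 8.003, 7.85 and 8.04 on controls and 8.13, 8.07 and 8.06 on mutants. The mutant arrays all lay above the controls, but by a narrow gap between control 3 and mutant 3. The difference of 0.12 ± 0.10 (SE), or 1.08-fold, was smaller than the absolute difference of 49.0% of all genes. It was 0.12 after quantile normalization and 0.14 after median centring. Of the other genes on the route by which cystatin M and cathepsin L act on the cornified envelope, the legumain gene *Lgmn* differed by -0.26 ± 0.13 (limma adjusted p = 0.484). The crosslinking enzyme genes *Tgm1* and *Tgm3* differed by 0.11 ± 0.17 and 0.15 ± 0.10 (adjusted p = 0.855 and 0.647). *Lor*, encoding the envelope protein loricrin, differed by -0.08 ± 0.10 (adjusted p = 0.818) and by 0.03 after quantile normalization.

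A wider list of 15 measured genes added others of the cornified envelope and the outer, late layers to that route. Of these 15, 2 fell, none rose and 13 did not pass, with a median of -0.23. Both that fell belong to the added genes. Of the 15, 10 were lower and 5 higher (44.5% of all genes were lower). At an unadjusted p under 0.05 in limma were 8 of the 15, beside 12.4% of all genes. Among the higher ones, *Casp14* and *Sprr1b* differed by 0.57 ± 0.17 and 0.57 ± 0.22 (SE, limma adjusted p = 0.222 and 0.349). Among the lower ones that did not pass, *Klk7* and *Cdsn* differed by -1.19 ± 0.32 and -0.78 ± 0.15 (adjusted p = 0.161 and 0.0701). The kallikrein protease gene *Klk5* fell by 2.50 ± 0.39 (SE; adjusted p = 0.0353) and the hornerin gene *Hrnr*, at -2.07 ± 0.34 (adjusted p = 0.0436), fell too. *Klk5* lost its call without any 1 array except mutant 2, and so did *Hrnr*. Both also lost it in the 4 females alone and with the replicate number as a block. *Klk5* lost it with sex as a covariate too, and *Hrnr* with median centring. *Klk5* lay under the dim limit of 4.35 on mutant 1 and at it on mutant 3, so the size of its fall is uncertain. Their differences without 1 array lay between -2.99 and -2.20 and between -2.49 and -1.76.

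*Ctsk* encodes cathepsin K, a collagenase best known from osteoclasts and also made by fibroblasts. It read 5.03, 4.78 and 5.01 on controls and 4.54, 4.54 and 4.21 on mutants, and the groups did not overlap. The difference was -0.51 ± 0.13 (SE), and it lay between -0.59 and -0.40 without single arrays. Signals of *Ctsk* were close to the dim limit of 4.35, and mutant 3 lay under it, so the size of the difference is uncertain. Markers of fibroblasts had lower signals on those arrays as well. All 20 measured fibroblast markers had negative differences (44.5% of all genes did), with a median of -0.65 and a mean level of 7.22 to 7.85 on controls and 6.69 to 6.84 on mutants. Of these, 3 passed and 17 did not: *Col1a2* (-1.30 ± 0.19, adjusted p = 0.0273), *Sparc* (-1.10 ± 0.17, adjusted p = 0.0312) and *Thy1* (-0.58 ± 0.10, adjusted p = 0.0479). *Thy1* did not pass in 12 of 15 alternatives, among them quantile normalization, median centring, an intensity trend, sex as a covariate, the females alone and each array left out. *Col1a2* and *Sparc* did not pass without any 1 array except control 1, and *Sparc* not with the replicate number as a block. In bulk RNA, fewer cells of a type and less RNA per cell cannot be told apart. The part of fibroblasts in the *Ctsk* difference was not tested.

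The aspartic proteases differed little. *Ctsd*, encoding cathepsin D, a main lysosomal endopeptidase, read 12.67, 12.53 and 12.63 on controls and 12.74, 12.79 and 12.93 on mutants. All mutant arrays were above all controls, with a difference of 0.21 ± 0.10 (SE) that ranged from 0.15 to 0.25 without single arrays. At signals this close to the array maxima of 13.99 to 14.67 differences may be compressed. *Ctse*, encoding cathepsin E, an endosomal protease of gastric epithelium and immune cells, read 3.57, 3.69 and 3.74 on controls and 3.48, 3.74 and 3.81 on mutants, under the dim limit on all 6 arrays. Its difference, 0.01 ± 0.12, turned to -0.02 after quantile normalization.

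*Ctss* encodes cathepsin S, which cuts the invariant chain from class II molecules in antigen-presenting cells. It read 6.62, 7.33 and 7.01 on controls and 7.97, 6.56 and 6.49 on mutants. The male mutant was the highest of the 6 arrays and the female mutants the lowest, so the groups overlapped on both sides. The mean difference was 0.02 ± 0.39 (SE), and it was -0.46 without mutant 1, -0.16 without control 1 and -0.65 in the females alone. Its pooled SD within groups, 0.64, was larger than that of 98.3% of all genes, while those of *Ctsb*, *Ctsz*, *Ctsd* and *Cst6* lay at the 8.2nd, 12.5th, 15.9th and 10.5th percentiles.

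The sexes gave a contrast that had no part in choosing the genes, though the male was replicate 1 in both genotypes, so sex and replicate number cannot be told apart. With genotype in the fit, 2 of all genes were called between 2 male and 4 female arrays (0.01% of those tested), and 0 of the 10 were. None of the 10 had an unadjusted p under 0.05 in limma (5.22% of all genes did), and their adjusted p lay between 0.944 and 0.994. The largest differences of male minus female were those of *Ctss* (0.45 ± 0.41, SE), *Ctsh* (0.29 ± 0.17) and *Ctsc* (0.27 ± 0.12). *Ctsc* read highest on the male array of both genotypes, though the mutant male lay only just above mutant 2. *Ctse* was lower in males by 0.21 ± 0.10, at signals under the dim limit.

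Whether the genotype difference itself depended on sex was tested with an interaction term, which rests on 1 male per genotype. It called 9 genes (0.0451%), and 0 of the 10. At an unadjusted p under 0.05, 5.82% of all genes and 1 of the 10 passed in limma. That gene was *Ctss*, where mutant minus control was 1.35 in the male pair and -0.65 in the females, a difference of 1.996 ± 0.273 (SE; unadjusted p = 0.000312, adjusted p = 0.230). For *Ctsc* the differences were 0.99 in the male pair and 1.22 in the females, and the interaction was -0.23 ± 0.25 (adjusted p = 0.9998). *Ctsk* differed by -0.50 and -0.52, and *Cst6* by 0.12 and 0.11. *Ctsl* differed by -0.41 in the male pair and -0.12 in the females, within the error of the interaction (-0.29 ± 0.39).

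**Figure D2:**
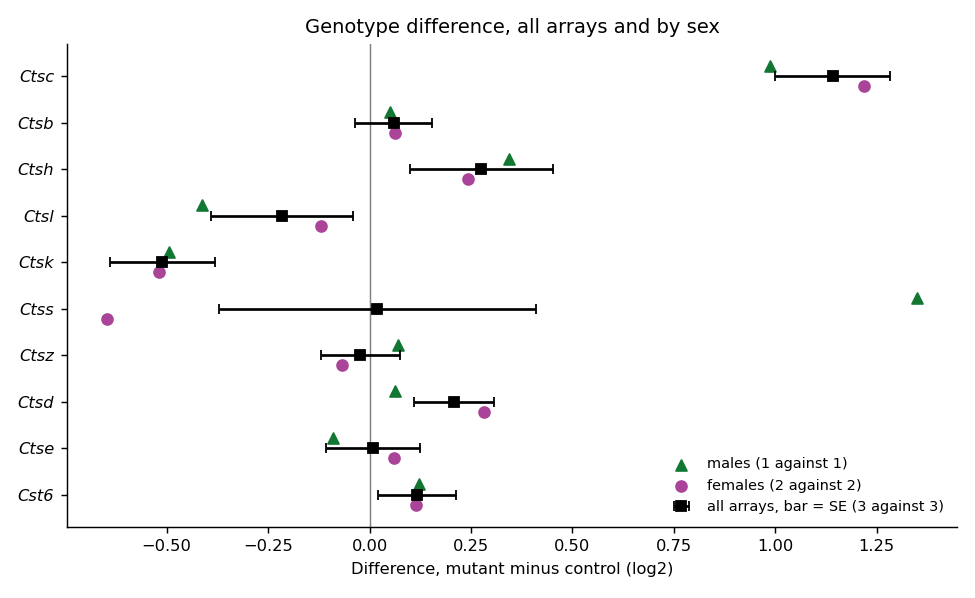
Difference of log2 signal, mutant minus control (horizontal axis), for each gene over all arrays (squares, bar = SE, 3 against 3), in the male pair (triangles) and in the females (circles, 2 against 2). *Ctsc* is near 1 in both sexes, while *Ctss* is 1.35 in the male pair and -0.65 in the females.

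Of 26 markers of macrophages and dendritic cells, 13 were highest on mutant 1, the array on which *Ctss* was highest, as were 16.7% of all genes. The other 13 peaked elsewhere, among them *C1qa*, *C1qb* and *C1qc* (complement C1q chains) on control 3. The interaction draws on the same values of mutant 1, so its count for these markers is not separate evidence. At an unadjusted p under 0.05 the interaction held for 16 of the 26, beside 5.82% of all genes, and for none after adjustment. Their mean level was 6.02 on mutant 1, 5.47 and 5.46 on mutants 2 and 3, and 5.53 to 5.82 on controls. The markers *Cd74*, *H2-Aa* and *Cd207*, named after their values were seen, encode the invariant chain, a class II chain and langerin of Langerhans cells. *Cd74* read 9.23 on mutant 1 and 7.68 to 8.68 on the other 5 arrays. *H2-Aa* read 8.54 there and 7.20 to 7.90 elsewhere, and *Cd207* 6.57 there and 4.93 to 5.55 elsewhere. Another class II chain gene, *H2-Eb1*, read 5.35 there and 5.07 to 5.21 elsewhere. Of the 13 that peaked on another array, *C1qa* read 6.27 on mutant 1 and 5.69 to 6.49 elsewhere. *Mrc1*, also of those 13, read 5.65 on mutant 1 and 5.10 to 5.90 elsewhere. The part of these cells in the *Ctss* values was not tested.

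Between genotypes the same markers did not move together. Of the 26, *Cd68* rose, *Lyz2* fell and 24 did not pass, with a median of 0.05 that was -0.24 in the females alone. Differences were positive for 15 and negative for 11 (44.5% of all genes were lower). *Cd163*, *C1qa* and *Mrc1* were lower, by 0.47 ± 0.19, 0.40 ± 0.18 and 0.29 ± 0.18 (SE), without passing. *Cd207* and *H2-Aa* were higher, by 0.55 ± 0.36 and 0.44 ± 0.31, also without passing. *Cd68*, encoding a lysosomal membrane protein abundant in macrophages, read 6.79, 6.73 and 6.86 on controls and 7.58, 8.25 and 7.88 on mutants (1.11 ± 0.17, SE; adjusted p = 0.0304). Its mutant arrays all lay above its controls, as those of *Ctsc* did, but with mutant 2 highest. *Lyz2*, encoding the lysozyme of macrophages, fell by 1.57 ± 0.27 (adjusted p = 0.0464). *Cd68* passed without mutant 1 but not without any other 1 array, and *Lyz2* only without control 1. *Cd68* also did not pass in the females alone, and *Lyz2* with sex as a covariate. With the replicate number as a block, neither of them passed. Of the defining markers, the macrophage receptor gene *Csf1r* read 6.66 to 7.21 on controls and 6.16 to 7.39 on mutants, and the mean signals of 3 of the 26 lay under the dim limit. The part of macrophages in the *Ctsc* difference was not tested.

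**Figure D3:**
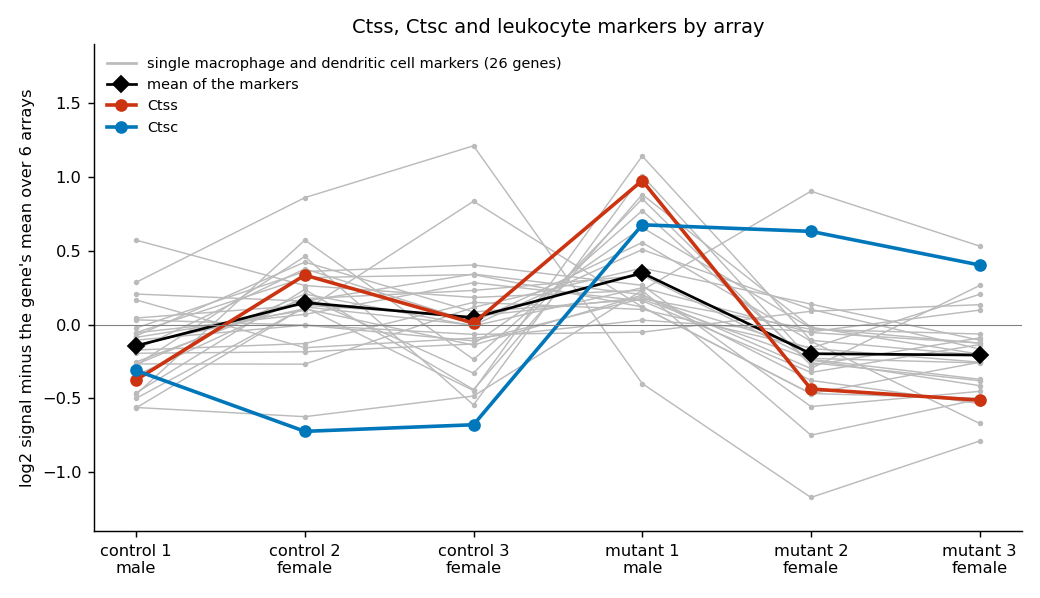
Log2 signal minus each gene's mean over the 6 arrays (vertical axis) by array (horizontal axis) for *Ctss* (red), *Ctsc* (blue), 26 macrophage and dendritic cell markers (grey) and the mean of those markers (black). *Ctss* and the marker mean are highest on mutant 1, while *Ctsc* is high on all 3 mutants.

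Genes of granule enzymes, mainly serine proteases that cathepsin C processes, were mostly dim. Their list also held *Cpa3*, a carboxypeptidase gene, and *Mpo*, a peroxidase gene, which do not encode serine proteases. The mean signals of 12 of 14 lay under the dim limit, and 0 passed in limma, with 2 at an unadjusted p under 0.05, which 12.4% of all genes reached. The mast cell genes *Mcpt4* and *Cpa3* differed by -0.93 ± 0.18 and -0.46 ± 0.14 (SE; adjusted p = 0.0717 and 0.205), and *Mcpt4* passed without control 2. Among 12 markers of neutrophils and mast cells, 11 were dim and 0 passed, with 2 at an unadjusted p under 0.05 (12.4% of all genes). Those were *Ltf*, encoding lactoferrin (0.65 ± 0.25, adjusted p = 0.351), and the chemokine receptor gene *Cxcr2* (0.77 ± 0.33, adjusted p = 0.394). None of 12 lymphocyte markers passed, also without adjustment, and *Cd4* and *Cd2* differed by 0.18 ± 0.11 and 0.23 ± 0.18 (adjusted p = 0.617 and 0.693).

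The carboxypeptidase genes *Scpep1* and *Cpq* fell among other lysosomal proteases. Of 9 measured lysosomal peptidases outside the cathepsins, 2 fell, 0 rose and 7 did not pass, and the list's median was -0.19. *Scpep1*, encoding a serine carboxypeptidase, read 10.34, 10.10 and 10.14 on controls and 8.28, 9.02 and 8.87 on mutants. All mutant arrays were lower, by 1.47 ± 0.19 (SE) or 2.77-fold (adjusted p = 0.0177). *Cpq*, encoding a carboxypeptidase of the lysosome and the extracellular space, read 6.26, 6.69 and 6.76 on controls and 5.54, 5.67 and 5.27 on mutants, a fall by 1.08 ± 0.16 (adjusted p = 0.0321). *Scpep1* did not pass without control 2, without control 3, without mutant 3 or with the replicate number as a block (differences between -1.62 and -1.25 without single arrays). With 1 array left out, *Cpq* passed only without control 1 (-1.23 to -0.97 without single arrays). It did not pass in the females alone or with the replicate number as a block.

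The remaining cathepsin genes gave 0 calls of 12 in limma, none at an unadjusted p under 0.05, and differences from -0.28 to 0.22. Of these, 9 were dim, among them the placental cathepsins *Cts6*, *Cts7*, *Cts8*, *Ctsj*, *Ctsq* and *Ctsr*. *Ctsf*, encoding cathepsin F, differed by -0.28 ± 0.12 (adjusted p = 0.419), and *Ctsg*, encoding the neutrophil serine protease cathepsin G, by 0.22 ± 0.11 at signals under the dim limit.

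Cystatin-family genes other than *Cst6* were listed with *Ctla2a* and *Ctla2b*, which resemble cathepsin propeptides and are not cystatins. These genes were called in 0 of 20 cases in limma, with 6 at an unadjusted p under 0.05 (12.4% of all genes) and 14 under the dim limit. Their median was 0.03, and -0.009 after quantile normalization. The largest difference was that of *Fetub*, encoding fetuin B, a secreted inhibitor of astacin metalloproteases. It read 12.23, 11.86 and 12.30 on controls and 8.37, 9.68 and 10.47 on mutants. All mutants were lower, by 2.62 ± 0.46 (SE) or 6.16-fold, but the mutant arrays were spread (SD 1.06) and the adjusted p was 0.0529. It passed without mutant 1, without mutant 3 and with sex as a covariate, among 6 of the 15 alternatives. *Ahsg*, encoding fetuin A, differed by -0.34 ± 0.11 (adjusted p = 0.245). Members of the stefin A group (*Csta1*, *Csta2*, *Csta3*, *Stfa2* and *Stfa3*) resemble each other closely in sequence, and their probes may pick up each other's transcripts.

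Lysosomal hydrolases and the list of membrane, acidification and sorting genes gave no calls. Of 29 genes for hydrolases and their activators, 22 were lower and 7 higher, while 44.5% of all genes were lower. Their median was -0.13, and 0 passed in limma, 8 having an unadjusted p under 0.05 beside 12.4% of all genes. *Fuca1*, encoding a fucosidase, and *Asah1*, encoding acid ceramidase, differed by -0.60 ± 0.14 and -0.76 ± 0.18 (SE; adjusted p = 0.104 and 0.114), and *Asah1* passed with array weights. The list of 36 genes for lysosomal membrane proteins, the proton pump and enzyme sorting also held the transcription factor genes *Tfeb*, *Tfe3* and *Mitf*. Of these 36, 0 passed in limma, 7 had an unadjusted p under 0.05 (12.4% of all genes), and the median was 0.05. The proton pump subunit genes *Atp6v1b2* and *Atp6v1a* differed by 0.34 ± 0.09 and 0.39 ± 0.11 (adjusted p = 0.162 and 0.178). Neither list was tested as a whole, and no difference between the lists was tested.

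**Figure D4:**
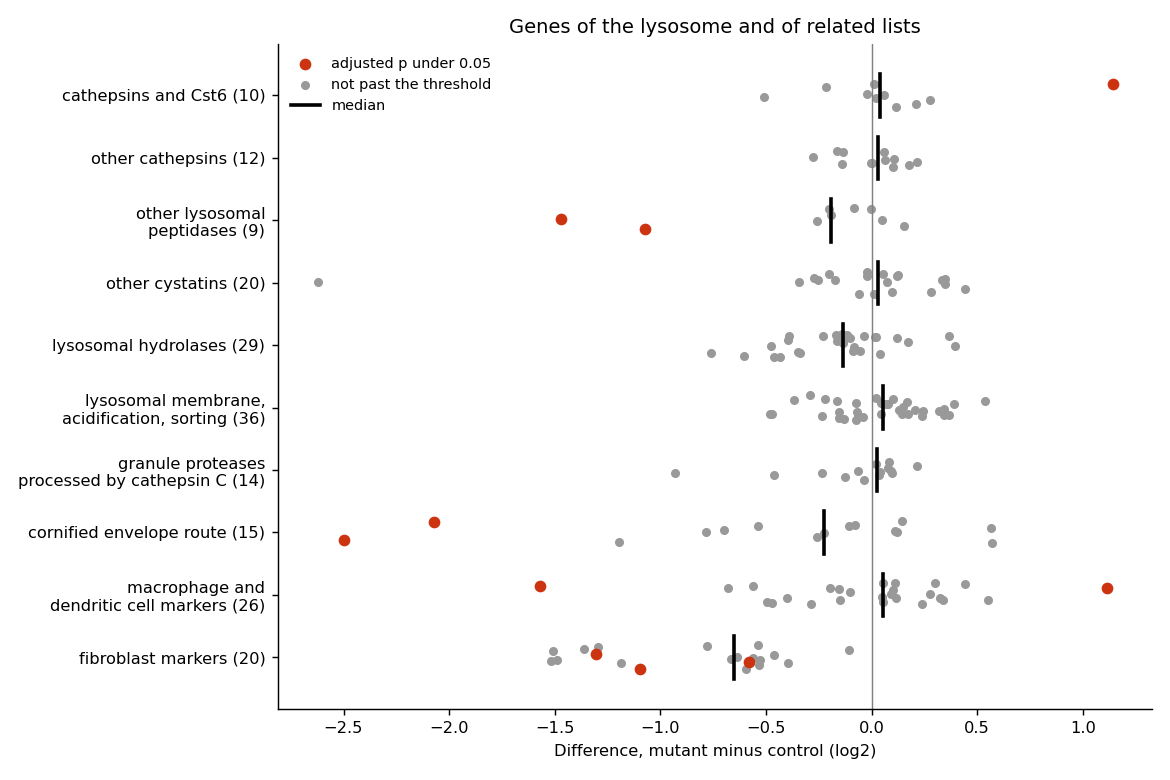
Difference of log2 signal, mutant minus control (horizontal axis), of single genes on each list (vertical axis, number of genes in brackets); red points have an adjusted p under 0.05, and the black bar is the list's median. *Ctsc* lies at 1.14, while *Scpep1* and *Cpq* stand below the other lysosomal peptidases and all 20 fibroblast markers lie below 0.

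Smooth muscle markers had a median of -0.75, with 11 of 12 lower (44.5% of all genes) and 0 passing in limma (9 at an unadjusted p under 0.05, beside 12.4% of all genes). The smallest p belonged to *Tagln* and *Cnn1* (-0.89 ± 0.17 and -1.09 ± 0.21, SE; adjusted p = 0.0717 and 0.0758). *Cnn1* passed without mutant 2. Of 12 endothelial markers, 1 fell, the VEGF receptor gene *Flt1* (-1.90 ± 0.19, adjusted p = 0.00982), which passed in all 15 alternatives, and the median was -0.07.

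The genes most like *Ctsc* over the 6 arrays were found by the root mean square distance between log2 values, each gene centred on its own mean. The nearest 5 of the other 19937 were *Zfp719*, *Il13ra1*, *Atp13a4*, *Arrdc3* and *Camk2n2*, at distances of 0.07, 0.08, 0.09, 0.11 and 0.14. *Zfp719*, encoding a zinc finger protein, read 6.51, 6.08 and 6.19 on controls and 7.47, 7.41 and 7.38 on mutants. *Il13ra1*, encoding a receptor chain for IL-13, read 9.29, 8.94 and 8.99 on controls and 10.17, 10.33 and 9.90 on mutants. All 5 had control 1 as the highest control, as *Ctsc* did, and mutant minus control differences between 1.04 and 1.29. Such likeness follows from the choice by distance over these same arrays, so nothing further is read from it. The 5 nearest to *Cst6* were *Atp11b*, *Hook3*, *Gpalpp1*, *Fam187b* and *Tmem238*, at distances of 0.02 to 0.03. Their differences lay between 0.09 and 0.14, and many genes with little change lie this close together.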

How the data were processed

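RNA of esophageal epithelium (6 animals, 1 array each) was isolated on columns, and 100 ng of each was amplified by in vitro transcription and biotin-labelled, per the labels' protocols. The authors deposited log2 signals of 28853 probe sets; that the scale is log2 was read from the values (array medians 5.01 to 5.13). The submitters' processing notes name Partek 6.4 and no other tool. How background was corrected and arrays normalized is not given in the sources used here. The size of differences between dim genes can depend on it. Arrays have no read depth, and their number limits the precision.

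Names came from the platform's gene table, and symbols were updated by Entrez identifier to assembly GRCm38.p6. Of 21789 probe sets naming 1 gene, 21698 matched and 91 kept the older symbol; 1621 named several genes and 5443 were unnamed here. The brightest probe set per gene gave 19938 genes. Nothing was filtered or renormalized.

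The genotype difference was fitted with limma 3.58.1 (R 4.3.3; lmFit and eBayes with genotype as the only term, two-sided, 4 residual degrees of freedom). P-values were adjusted by Benjamini-Hochberg across the 19938 genes, with 0.05 as threshold, and errors are moderated SE. An exact permutation test of 3 against 3 cannot go below p = 0.1 and was not used. Sex was fitted beside genotype (3 residual degrees of freedom), and the interaction of both with 2. Python 3.11.15 and matplotlib 3.10.9 served for tables and plots. For mutant against control, 1 data set was simulated with independent normal noise at the moderated SDs and 50 of 19938 genes changed per step. Log2 changes of 0.5, 1, 2 and 3 were called in 12.2%, 86%, 100% and 100% of the changed genes whose difference had the right sign. Of the 158 calls, 9 were false.

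The 10 genes and the 14 lists around them, with 251 of 275 entries (the 10 genes included) matched to a probe set, were chosen with earlier results of these data known. Genes named beside the 10 were *Klf4*, up to 4 passing members of each list (or the 2 with the smallest p), *Lgmn*, *Tgm1*, *Tgm3*, *Lor*, and the 5 genes nearest to *Ctsc* and to *Cst6*; others are marked or stand as examples of a list. Alternatives were quantile normalization, median centring, dim probe sets left out, the mean of probe sets, an intensity trend, array weights, sex as a covariate, the replicate number as a block and each array left out. The fit of the females only was chosen after seeing the data.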

Additional observations from a re-analysis of the deposited data

How the results depend on the processing

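With 3 arrays per genotype the counts of called genes moved with the setting. Mutant against control, 207 genes were called in all, and 370 with array weights, 83 in the females alone and 44 to 193 with 1 array left out. Without control 3 the count was 44, without control 2 it was 106, and without mutant 1, 2 or 3 it was 93, 93 and 102. Of the 10 cathepsin and cystatin M genes 1 was called, and 0 to 1 with 1 array left out. Of the listed genes beside them 10 were called, 20 with array weights and 1 to 12 with 1 array left out. With the replicate number as a block, 81 genes, 4 listed genes and still *Ctsc* were called. Beyond the male as replicate 1, whether the numbers pair the animals is not known. Deviations from the group means correlated at -0.17, 0.09 and -0.10 over genes for replicates 1, 2 and 3. Each mutant correlated better with a control of another number (0.20 for mutant 1, 0.17 for mutant 2 and 0.31 for mutant 3). With 3 arrays per genotype the deviations within a group are tied to each other, so these correlations cannot decide it. Between the sexes 2 genes were called, 5 with median centring, 5 with an intensity trend and 1 without dim probe sets; none of these calls was among the 10 genes. All 15 named genes that passed kept their direction in the 15 alternatives. Their control and mutant arrays did not overlap, so leaving out arrays could not turn a sign, and nothing is read from this. Of the 10 genes, *Ctse*, *Ctss* and *Ctsz*, whose differences lay within their errors, changed sign in 5, 3 and 1 of the alternatives.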
